A study of Mus musculus with 7 samples.

Results

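The genes described here are 35 listed genes of cholesterol and fatty acid synthesis. They were chosen by name, with earlier results of these data known. Of these, 34 had a probe set in the deposited array values, 18 of them sterol genes and 16 fatty acid genes, among 18193 genes in all. Acat2 is not analysed here. Each gene is given by 1 probe set, the brightest on average of those annotated with that symbol alone.

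Cholesterol is built from acetyl-CoA through mevalonate, isoprenoid phosphates, squalene and lanosterol, and fatty acids are built from the same acetyl-CoA by a carboxylase and a synthase and then elongated, desaturated and activated. Both pathways are controlled by the SREBP transcription factors, which Insig proteins hold in the endoplasmic reticulum when sterols are plentiful. In skin these pathways supply the membranes of dividing keratinocytes, the barrier lipids of the epidermis and the lipids secreted by sebocytes.

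RNA came from mouse skin tumours raised with DMBA, a carcinogen, and TPA, a tumour promoter. Tumour cells carrying CD34, a surface antigen of hair follicle stem cells, and Epcam, an epithelial adhesion molecule, were isolated by FACS. Of the 7 Affymetrix mouse arrays, 4 were from carcinomas, the malignant tumours, and 3 from papillomas, the benign ones. The titles number 3 carcinoma and 2 papilloma arrays and mark the remaining array of each type with GFP. They do not say what GFP marks, so the tag is described here as a label. Every description places Nr2f2 before the tumour type without giving a genotype. The sources used here do not give the strain, age or sex of the mice, the number of tumours or mice behind an array, or any promoter that drives a transgene. Nothing states that the arrays came from separate mice, so the p-values cover the spread between arrays, which may be technical.

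In all 5 untagged arrays the keratinocyte markers were bright, with a summed level of 15.54 to 16.09 (log2), against 14.87 and 14.90 in the tagged arrays. Of the 11 keratinocyte markers measured, 7 were lower with the tag by limma's adjusted p. Epcam, used in the sort, was 5.26-fold lower with the tag (adjusted p = 0.0144, limma), while Cd34 read 8.76 to 10.80 in the untagged arrays and 11.73 and 11.66 in the tagged ones. The tagged arrays stood apart in other ways. The summed level of 10 endothelial markers was 14.39 to 14.50 in them against 9.20 to 9.84 in the untagged arrays, and that of 9 fibroblast markers was 14.69 to 15.69 against 9.35 to 11.87. Probe sets at the 3′ end of Gapdh read 3.19 log2 units above those at its 5′ end in both tagged arrays, against -0.04 to 0.06 in the others. This gap is a usual sign of RNA that was degraded or copied incompletely. All values below are log2 probe set levels, and levels of different genes are not set against each other.

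Promoter sequences are shown for 4 genes on which the results turn: Hmgcs1, whose probe sets gave opposite differences, and Srebf2, Msmo1 and Elovl5, which differed with the tag. Each window runs 5′ to 3′ on the strand of the gene, from 250 bases before to 50 after the transcription start, as given by RefSeq on GRCm38.p6. The windows are chr13:119690101-119690400 on the plus strand for Hmgcs1, chr15:82147019-82147318 on the plus strand for Srebf2, chr8:64733529-64733828 on the minus strand for Msmo1 and chr9:77917115-77917414 on the plus strand for Elovl5. Capitals mark matches on either strand to 3 motifs: TCACNCCAC (or GTGGNGTGA), a form of the sterol regulatory element that SREBP binds, CCAAT (or ATTGG), the box bound by NF-Y, and CACGTG, an E-box. No matches overlapped in these 4 windows.
Hmgcs1: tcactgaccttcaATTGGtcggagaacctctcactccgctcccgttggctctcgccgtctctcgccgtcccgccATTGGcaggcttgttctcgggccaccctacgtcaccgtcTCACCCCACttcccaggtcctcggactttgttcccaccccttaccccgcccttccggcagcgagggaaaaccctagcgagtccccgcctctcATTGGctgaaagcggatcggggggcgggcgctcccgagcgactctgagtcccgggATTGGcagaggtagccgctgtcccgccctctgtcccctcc
Srebf2: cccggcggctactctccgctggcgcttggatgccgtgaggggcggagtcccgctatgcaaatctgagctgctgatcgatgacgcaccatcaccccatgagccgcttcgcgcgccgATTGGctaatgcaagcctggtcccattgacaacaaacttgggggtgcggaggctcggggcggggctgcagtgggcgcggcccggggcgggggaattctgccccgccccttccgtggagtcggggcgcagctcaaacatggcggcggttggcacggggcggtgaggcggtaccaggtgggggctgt
Msmo1: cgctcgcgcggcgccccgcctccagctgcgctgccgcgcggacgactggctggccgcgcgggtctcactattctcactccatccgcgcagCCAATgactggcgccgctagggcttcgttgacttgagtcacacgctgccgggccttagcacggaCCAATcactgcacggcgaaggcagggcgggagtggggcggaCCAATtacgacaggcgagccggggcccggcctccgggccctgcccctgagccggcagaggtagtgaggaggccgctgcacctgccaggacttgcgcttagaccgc
Elovl5: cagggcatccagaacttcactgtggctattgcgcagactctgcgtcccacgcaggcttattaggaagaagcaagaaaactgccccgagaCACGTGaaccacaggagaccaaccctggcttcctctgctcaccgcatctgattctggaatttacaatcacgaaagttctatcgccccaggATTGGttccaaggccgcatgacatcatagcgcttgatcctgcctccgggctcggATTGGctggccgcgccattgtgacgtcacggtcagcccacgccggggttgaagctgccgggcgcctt

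A window was given for 27 of the 34 measured genes. The sterol regulatory element form occurred in 1 of 14 sterol genes, Hmgcs1, in 0 of 13 fatty acid genes, and in 1.24% of all 32851 windows of the same length. A CCAAT box occurred in all 14 sterol genes with a window, counting a gene with several windows if any held it, and in 14 of their 17 windows, whereas 9 of 13 fatty acid genes and 10 of their 17 windows held one. The share over all windows was 37.4%. The E-box occurred in Dhcr7, Hsd17b7, Insig1, Sc5d and Elovl5, and in 7.15% of all windows. Among the printed windows, Hmgcs1 held 1 sterol element and 4 CCAAT boxes, Msmo1 held 3 CCAAT boxes, Srebf2 held 1, and Elovl5 held 2 together with 1 E-box. A match is a description of letters, and a window without one says only that these letters are absent there.

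The first comparison asked whether sterol and fatty acid genes differed between carcinomas and papillomas. No sterol gene was called, and the 18 differences between carcinoma and papilloma, with the tag as a covariate, lay between -0.34 and 0.18 log2 units with a median of -0.10. The 16 fatty acid genes spread more widely, from -0.88 for Scd1 to 1.32 for Acsbg1, with a median of 0.09. By limma with Benjamini-Hochberg adjustment over all genes, 0 of 34 were called, against 0% of all genes. At an unadjusted p under 0.05 the counts were 0 of 34 and 331 of 18193, or 1.82%. Over all genes the median difference was -0.01. No member had carcinomas wholly above or wholly below papillomas over all 7 arrays, which 0.506% and 0.912% of all genes had.

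**Figure D1:**
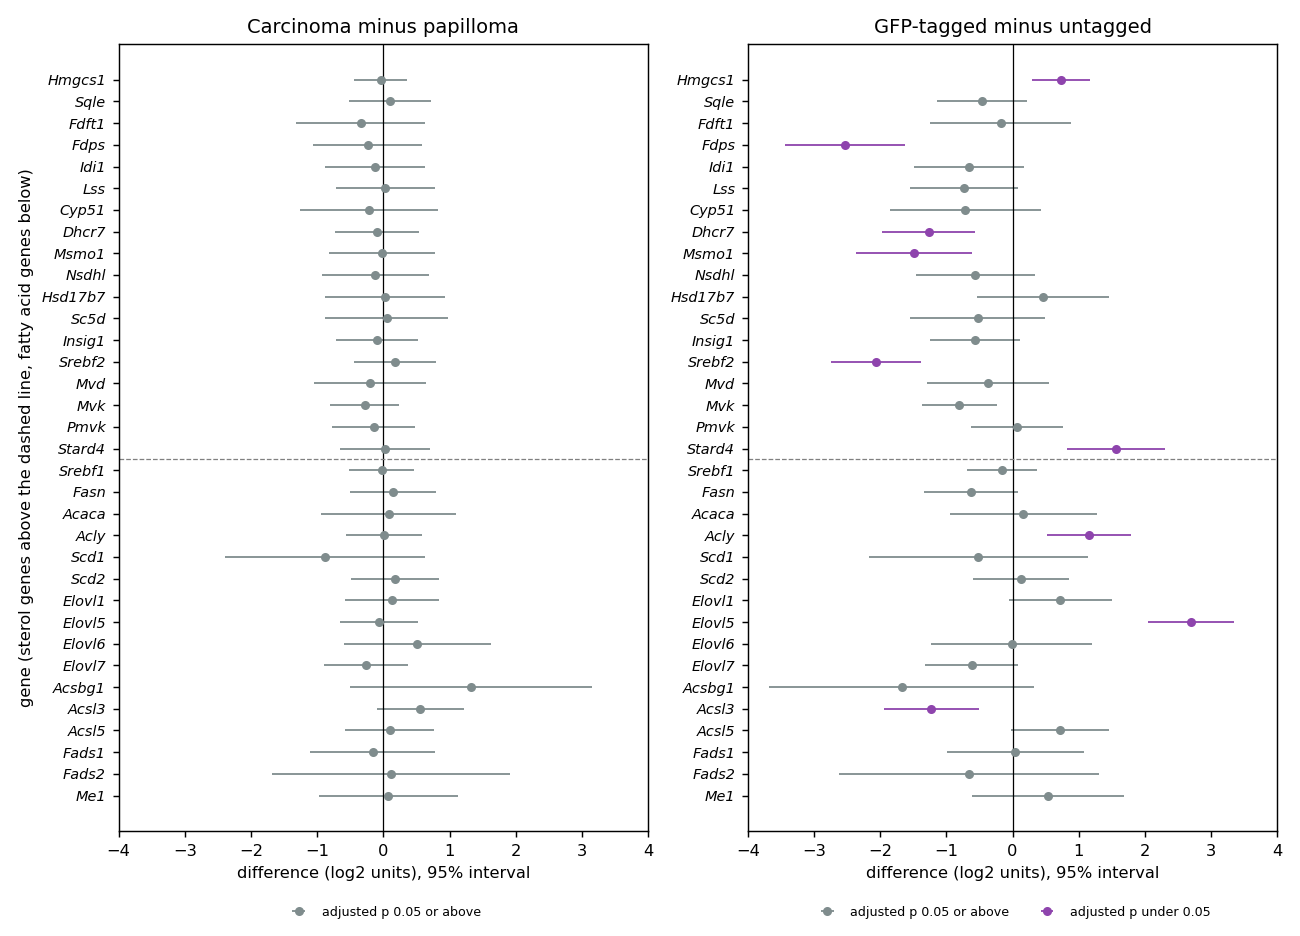
Fitted differences of the 34 genes in log2 units with 95% intervals, carcinoma minus papilloma on the left and GFP-tagged minus untagged on the right. On the left every interval crosses 0, and on the right 9 genes in purple passed the adjusted threshold.

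Among the sterol genes, 12 were lower and 6 higher in carcinomas, without any passing the test, and the 95% intervals of the 18 genes together ran from -1.31 to 0.98. Fdft1, squalene synthase, had the largest difference, -0.34 (SE 0.41). Its level was 10.70, 10.33 and 8.97 in carcinomas 1, 2 and 3, 10.48 and 10.18 in papillomas 1 and 2, and 9.80 and 10.17 in the tagged carcinoma and papilloma. Carcinoma 3 was the low array and carcinoma 1 the high one, so the tumour types overlapped.

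Mvk, the kinase that adds the first phosphate to mevalonate, differed by -0.28 (SE 0.22, 95% interval -0.80 to 0.24). It stood at 8.13, 8.21 and 7.48 in carcinomas 1 to 3, at 8.27 and 8.29 in papillomas 1 and 2, and at 7.23 and 7.37 in the tagged carcinoma and papilloma. Every untagged carcinoma lay below both untagged papillomas, by a narrow margin except in carcinoma 3. Mvk was the only one of the 18 listed sterol genes measured whose untagged tumour types did not overlap. Some further sterol enzymes set beside the list, Lbr and Acat1 among them, had the same arrangement. Over all genes, 8.81% had untagged carcinomas wholly below untagged papillomas.

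Mvd, which decarboxylates the mevalonate pyrophosphate made further along this path, differed by -0.20 (SE 0.36). Its level was 7.73, 7.78 and 6.48 in carcinomas 1 to 3, 7.87 and 7.42 in the untagged papillomas, and 7.14 and 7.07 in the tagged carcinoma and papilloma. Cyp51, the lanosterol demethylase, differed by -0.22 (SE 0.44). It read 9.91, 9.72 and 8.17 in carcinomas 1 to 3, 9.82 and 9.53 in the untagged papillomas, and 8.86 and 8.62 in the tagged pair. In both genes carcinoma 3 was the lowest untagged array. Carcinomas 1 and 2 lay between the untagged papillomas in Mvd, while in Cyp51 carcinoma 2 did and carcinoma 1 lay above both.

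That position of carcinoma 3 was shared by most sterol genes. It was the lowest of the 5 untagged arrays in 15 of 18 sterol genes, and papilloma 2 was lowest in the other 3. No sterol gene in carcinoma 3 was above the mean of the untagged arrays, and the median deviation was -0.78 log2 units, against 0.30, 0.30, 0.33 and -0.14 in carcinomas 1 and 2 and papillomas 1 and 2. Over all genes, carcinoma 3 was the lowest untagged array in 24.7%, with a median deviation of -0.03. Without carcinoma 3 the median sterol difference between tumour types was 0.14, with 15 of 18 genes higher in carcinomas, and without papilloma 1 it was 0.04, with 10 of 18 higher, so the sign of the list's median was not kept. Without papilloma 2 all 18 were lower, with a median of -0.19.

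**Figure D2:**
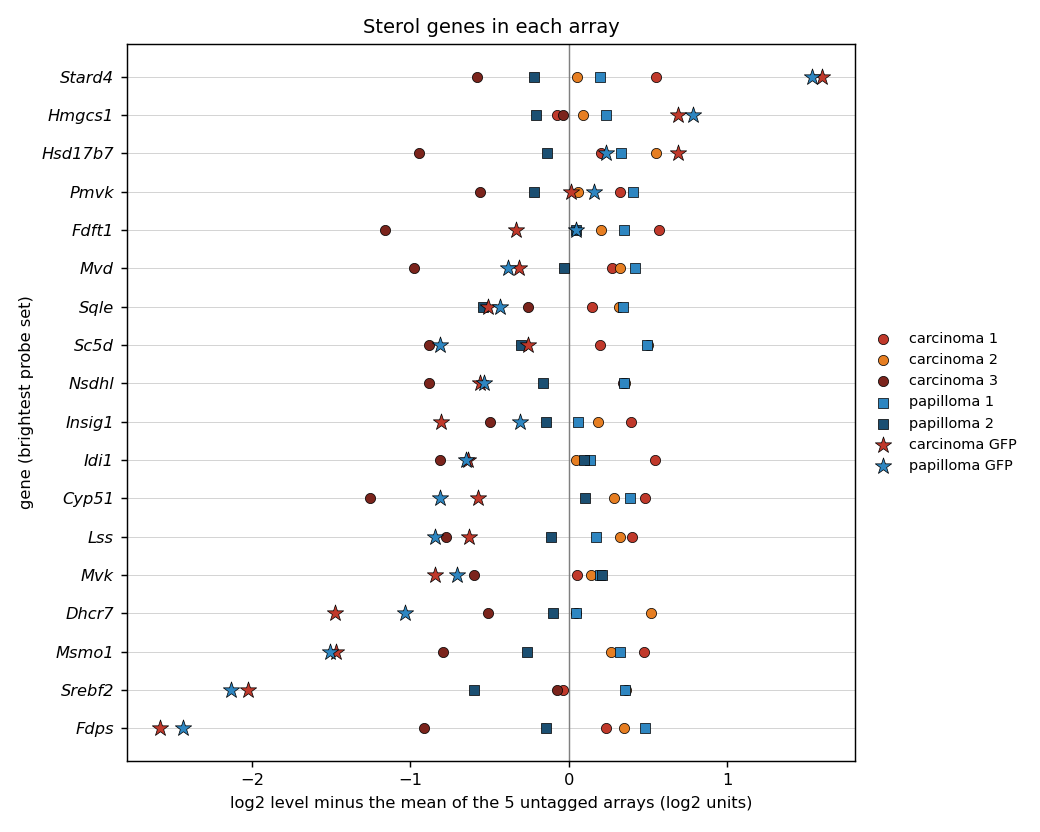
Log2 level of each sterol gene in each array minus the mean of the 5 untagged arrays. Dark red circles, carcinoma 3, lie at or left of 0 throughout and are the lowest untagged array in 15 of 18 genes.

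The other genes of sterol synthesis listed beside the members shared this low place of carcinoma 3, but not the order of the other arrays. In papilloma 2 their median deviation was 0.21, against -0.14 in the 18 sterol genes. All 6 measured, among them Lbr, a sterol reductase of the nuclear envelope, and Ggps1, which makes geranylgeranyl pyrophosphate, were lowest in carcinoma 3 among the untagged arrays. Beside this, all 9 fibroblast markers measured were lowest there as well, with a median deviation of -1.41, as were 6 of 10 myeloid markers, while 0 of 11 keratinocyte markers were. The summed levels of adipocyte and sebocyte markers were lowest there too, at 8.71 and 7.86, against 9.44 to 11.60 and 8.36 to 9.62 in the other untagged arrays. Marker by marker, however, 3 of 8 adipocyte markers were lowest in carcinoma 3 and 4 of 8 lay above the untagged mean, and 3 of 6 sebocyte markers were lowest there with 0 above. The part of these markers in the low sterol values was not tested.

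In the regulators of the sterol pathway no difference between tumour types was called. Insig1, which retains SREBP and is itself an SREBP target, differed by -0.10 (SE 0.26, 95% interval -0.71 to 0.52). Its levels were 9.35, 9.14 and 8.46 in carcinomas 1 to 3, 9.01 and 8.81 in the untagged papillomas, and 8.15 and 8.64 in the tagged carcinoma and papilloma. Srebf2, which encodes the SREBP that mainly drives sterol genes, differed by 0.18 (SE 0.26, 95% interval -0.44 to 0.80), and the tumour types overlapped in both genes. A second Srebf2 probe set gave the opposite sign, -0.23 (SE 0.24).

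Among the fatty acid genes, 11 were higher and 5 lower in carcinomas, again without any passing the test. Acsbg1, an acyl-CoA synthetase for long and very long chains, had the largest difference, 1.32 (SE 0.77, 95% interval -0.50 to 3.15). It read 7.90, 8.62 and 9.57 in carcinomas 1 to 3, 8.16 and 5.42 in the untagged papillomas, and 6.09 and 6.16 in the tagged carcinoma and papilloma. Papilloma 2 and both tagged arrays were the low ones, and without papilloma 2 the difference was 0.29.

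Acsl3, which activates fatty acids at the endoplasmic reticulum and on lipid droplets, differed by 0.56 (SE 0.28, 95% interval -0.10 to 1.22). It stood at 8.92, 8.88 and 9.49 in carcinomas 1 to 3, at 8.87 and 7.99 in the untagged papillomas, and at 7.70 and 7.40 in the tagged carcinoma and papilloma. All 3 untagged carcinomas lay above both untagged papillomas, carcinoma 2 by a narrow margin, an arrangement that 3.47% of all genes showed. A second probe set of Acsl3 gave 0.84 for the same difference.

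Elovl6, which elongates palmitate to stearate, differed by 0.51 (SE 0.47). Its level was 9.28, 9.50 and 8.22 in carcinomas 1 to 3, 9.43 and 8.50 in the untagged papillomas, and 9.74 and 8.09 in the tagged carcinoma and papilloma. The gap of 1.65 within the tagged pair carried this difference, and without the tagged arrays it was 0.04. Elovl7, another elongase, differed by -0.26 (SE 0.27). It read 8.06, 8.04 and 7.55 in carcinomas 1 to 3, 7.87 and 8.72 in the untagged papillomas, and 7.51 and 7.41 in the tagged carcinoma and papilloma, so papilloma 2 was high and the types overlapped.

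Srebf1, which encodes the SREBP that mainly drives fatty acid synthesis, varied little. It stood at 10.23, 9.65 and 9.92 in carcinomas 1 to 3, at 10.18 and 9.72 in the untagged papillomas, and at 9.77 and 9.80 in the tagged carcinoma and papilloma. Its difference between tumour types was -0.02 (SE 0.20, 95% interval -0.51 to 0.46), the arrays of both types covering the same range.

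Scd1, the stearoyl-CoA desaturase that introduces the double bond of oleate, was ordered oppositely in the tagged and untagged arrays. Its level was 8.76, 9.99 and 8.84 in carcinomas 1 to 3 and 10.91 and 11.09 in the untagged papillomas, whereas the tagged carcinoma stood at 10.15 and the tagged papilloma at 8.83. Carcinoma was therefore 1.80 lower by the untagged means and 1.33 higher within the tagged pair, while the fit over all arrays gave -0.88 (SE 0.64, 95% interval -2.40 to 0.63). The interaction of tumour type and tag was 3.13 (SE 0.77, 95% interval 1.23 to 5.03, unadjusted p = 0.00723 in limma's model across all genes), and it did not pass adjustment over all genes (adjusted p = 0.9998, limma).

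No gene in the table passed for the interaction, and 2.14% had an unadjusted p under 0.05, among them 2 of the 34, Scd1 and Elovl5. The tagged side of this comparison holds 1 array of each type. A second, dimmer Scd1 probe set read 6.84, 7.78 and 6.65 in carcinomas 1 to 3, 8.22 and 8.42 in the untagged papillomas, and 6.57 and 5.78 in the tagged carcinoma and papilloma, the same orders on both sides. Scd2, the desaturase encoded beside Scd1, differed by 0.18 (SE 0.28) and had overlapping types. Elovl5 was the only other gene among the 34 with untagged carcinomas wholly below untagged papillomas, besides Mvk and Scd1.

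**Figure D3:**
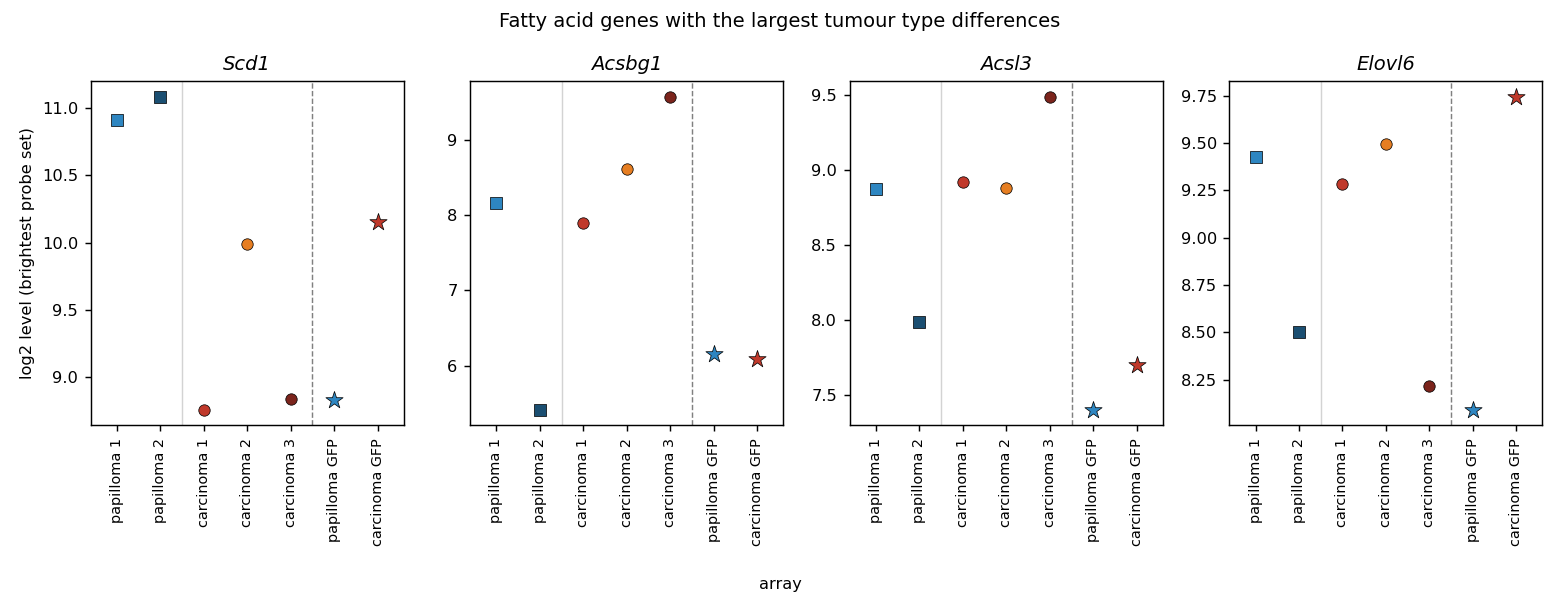
Log2 level of Scd1, Acsbg1, Acsl3 and Elovl6, the fatty acid genes with the largest differences between tumour types, in each of the 7 arrays. Each point is 1 array and each panel has its own axis range. In Scd1 the untagged papillomas lie above the untagged carcinomas and the tagged papilloma lies below the tagged carcinoma.

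The remaining fatty acid genes had small differences between tumour types, from -0.16 for Fads1, a desaturase of polyunsaturated chains, to 0.18 for Scd2. Fasn, the fatty acid synthase, differed by 0.15 (SE 0.27), Acaca, the carboxylase before it, by 0.08 (SE 0.43), and Acly, which supplies cytosolic acetyl-CoA, by 0.01 (SE 0.24). Carcinoma 3 was the lowest untagged array in 9 of 16 fatty acid genes, with a median deviation of -0.46, and papilloma 2 in 5, with -0.44, where 24.7% and 27.6% of all genes were lowest in these arrays. In Acsbg1 and Acsl3 carcinoma 3 was instead the highest untagged array. Without papilloma 2 the list's median was -0.12, without carcinoma 1 it was -0.03, and without carcinoma 3 it was 0.25.

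**Figure D4:**
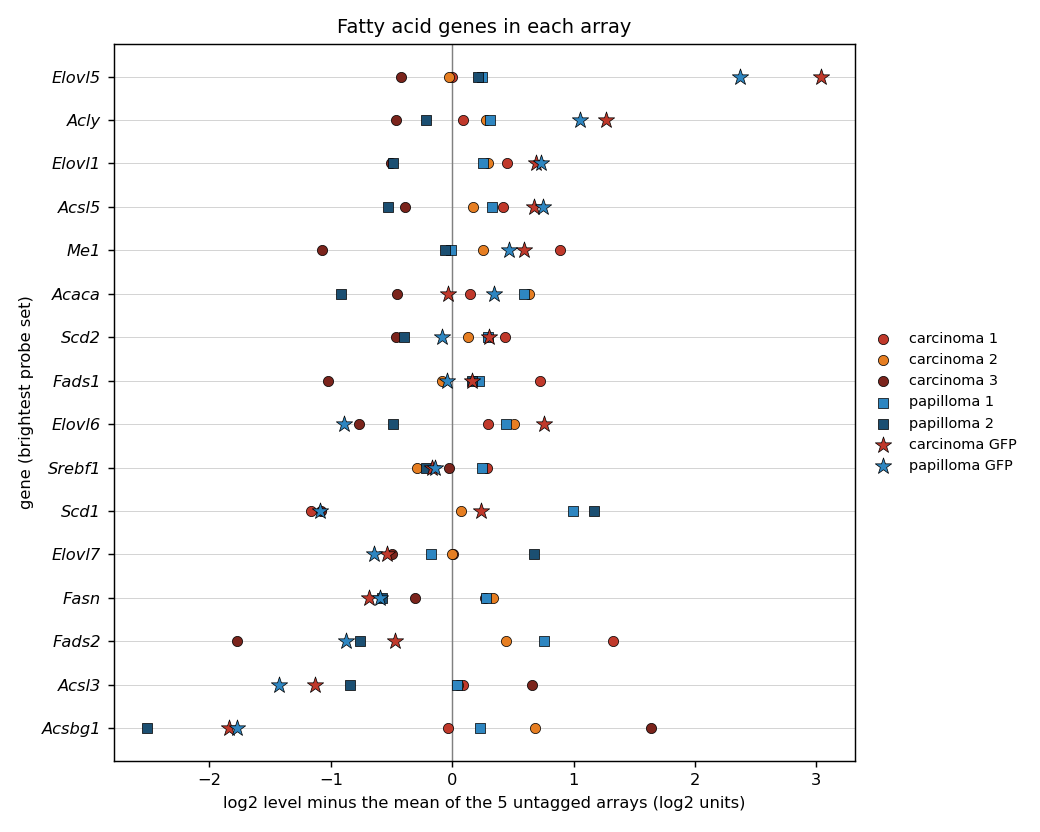
Log2 level of each fatty acid gene in each array minus the mean of the 5 untagged arrays. Elovl5 in both tagged arrays lies far to the right, and Acsbg1 spreads most widely, with papilloma 2 lowest and carcinoma 3 highest.

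The second comparison asked how the same genes differed between the tagged and untagged arrays. On the probe set used for each gene, Fdps, Srebf2, Msmo1, Dhcr7 and Acsl3 were lower with the tag, and Elovl5, Stard4, Acly and Hmgcs1 were higher. These 9 of 34 passed the adjusted threshold, 26.5% of the genes against 19.8% of all genes tested. By direction, 4 were higher, against 11.9% of all genes, and 5 lower, against 7.93%. At an unadjusted p under 0.05 the counts were 10 of 34 and 32% of all genes. Of the sterol genes 2 were called higher and 4 lower, and of the fatty acid genes 2 higher and 1 lower. The median difference was -0.56 over the 18 sterol genes, 14 of them lower, 0.01 over the 16 fatty acid genes, 8 of them lower, and -0.05 over all genes. With each array centred on its own median, the median of all genes was -0.29, that of the sterol genes -0.80 and that of the fatty acid genes -0.22. This centring shifts every gene by the same amount, so the gap between the list and all genes is fixed by construction. Among all genes 2159 were called higher and 1442 lower with the deposited values, against 1759 and 2442 after this centring and 2134 and 2257 after quantile normalization. With the mean of all probe sets per gene, 1 of the 34 was called higher and 6 lower, against 1846 and 1385 of all genes. Other bright probe sets of Hmgcs1 and Acly had negative differences, given below.

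The largest difference among the sterol genes was that of Fdps, which makes farnesyl pyrophosphate, the branch point of sterols and isoprenoids. It stood at 10.34, 10.45 and 9.19 in carcinomas 1 to 3 and at 10.58 and 9.96 in the untagged papillomas, but at 7.52 and 7.67 in the tagged carcinoma and papilloma. Both tagged arrays lay below every untagged array, and Fdps fell by 2.53 log2 units with the tag (SE 0.38, adjusted p = 0.00519, limma), which is 5.79-fold. Without either the tagged carcinoma or the tagged papilloma the call was lost.

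Srebf2 read 9.44, 9.84 and 9.40 in carcinomas 1 to 3, 9.83 and 8.88 in the untagged papillomas, and 7.45 and 7.34 in the tagged carcinoma and papilloma. The tagged arrays lay below all others, and the difference was -2.06 (SE 0.29, adjusted p = 0.00381, limma), or 4.17-fold lower. A second Srebf2 probe set gave -0.36 (SE 0.26, adjusted p = 0.413 over all probe sets, limma), so the fall was that of 1 of its 2 probe sets. The call was lost without the tagged carcinoma.

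Msmo1, which removes methyl groups from the sterol ring, stood at 11.0, 10.80 and 9.74 in carcinomas 1 to 3, at 10.85 and 10.26 in the untagged papillomas, and at 9.06 and 9.02 in the tagged carcinoma and papilloma. It fell by 1.49 with the tag (SE 0.37, adjusted p = 0.0325, limma). Dhcr7, which makes cholesterol from 7-dehydrocholesterol, read 9.98, 10.45 and 9.43 in carcinomas 1 to 3, 9.98 and 9.83 in the untagged papillomas, and 8.46 and 8.90 in the tagged pair. It fell by 1.27 (SE 0.29, adjusted p = 0.0264, limma). In both genes the tagged arrays lay below every untagged array, and both calls were lost without carcinoma 1, papilloma 1 or either tagged array, and that of Msmo1 also without carcinoma 2.

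Stard4, which carries cholesterol between membranes, had the largest rise of the sterol genes on the probe sets used. Its level was 8.36, 7.86 and 7.23 in carcinomas 1 to 3, 8.01 and 7.59 in the untagged papillomas, and 9.40 and 9.34 in the tagged carcinoma and papilloma. The tagged arrays lay above all others, 2.96-fold higher by the fitted difference of 1.57 (SE 0.31, adjusted p = 0.0151, limma). Its other probe sets gave 0.56 and 0.31, neither called, and the call was lost without either tagged array. The probe set used was the brightest only with the tagged arrays counted. Over the untagged arrays alone it averaged 7.81, against 8.03 for the one that gave 0.56.

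Hmgcs1, the synthase that makes HMG-CoA, was called higher by its brightest probe set and lower by others. It lies outside the rule by which values in every array are given, and its values were chosen after they were seen. The brightest probe set stood at 11.39, 11.56 and 11.43 in carcinomas 1 to 3, at 11.71 and 11.26 in the untagged papillomas, and at 12.16 and 12.25 in the tagged pair, a difference of 0.73 (SE 0.18, adjusted p = 0.0338, limma). A second, almost as bright, read 11.59, 11.86 and 11.79, then 11.74 and 11.53, and 10.30 and 10.43 in the same order, a difference of -1.33 (SE 0.17, adjusted p = 0.00379 over all probe sets, limma). In each the tagged arrays lay outside the untagged range, on opposite sides. Over the untagged arrays alone the first averaged 11.47 and the second 11.70, so the first was the brightest only with the tagged arrays counted. The other bright ones gave -1.50 (adjusted p = 0.00246, limma) and -1.64 (adjusted p = 0.0505, limma), and the direction of Hmgcs1 with the tag therefore depends on the probe set. The call of the brightest was also lost with arrays centred on their median (0.50, adjusted p = 0.0945, limma) and without any 1 of the 4 carcinoma arrays or the tagged papilloma. Between tumour types its 4 bright probe sets gave differences of -0.04 to 0.26, none called.

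Opposite signs within a gene were not particular to Hmgcs1. Of 21 members with at least 2 probe sets brighter than the median probe set, 7 had tag differences of both signs, 33.3% against 42.4% of 4323 such genes. These were Hmgcs1, Hsd17b7, Sc5d, Acly, Elovl1, Elovl6 and Scd2. The differences of a gene's probe sets spanned over 1 log2 unit in 9 of 21, or 42.9%, against 39.5%. The gap between 3′ and 5′ control probe sets moved with the tag, and its part in these differences was not tested.

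**Figure D5:**
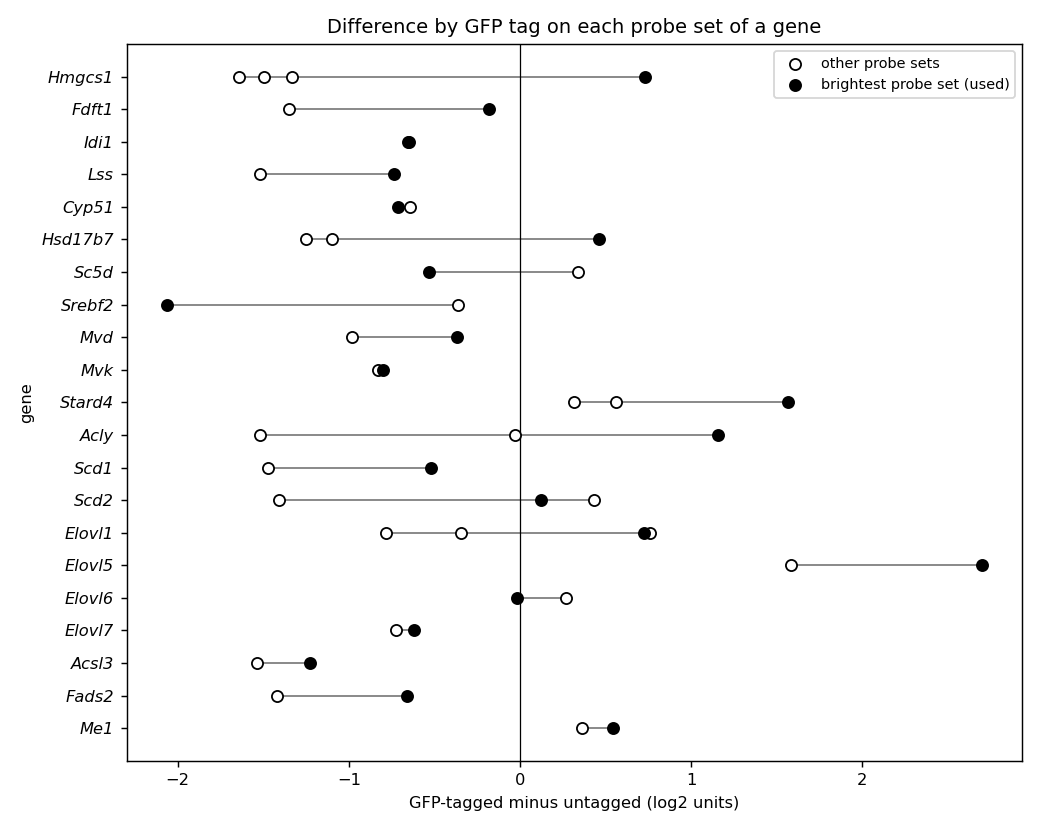
GFP-tagged minus untagged difference in log2 units for each bright probe set of the members with at least 2, with the probe set used for the gene marked. Points of Hmgcs1 lie on both sides of 0, those of Elovl5 and Acsl3 on 1 side.

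Among the sterol genes not called with the tag, Mvk was lower by 0.80 and came close to the threshold (SE 0.24, adjusted p = 0.0592, limma), and it passed under 5 of 15 alternative analyses. Its tagged arrays lay below all others. Insig1 differed by -0.57 (SE 0.28, adjusted p = 0.228, limma). Of the enzymes between squalene and cholesterol, Lss, which cyclises squalene epoxide to lanosterol, differed by -0.73, Cyp51 by -0.71, Nsdhl by -0.56 and Sc5d by -0.53. None of these passed. Hsd17b7, a sterol ketoreductase, gave 0.46 on its brightest probe set and -1.25 and -1.10 on its other bright ones, none called. Fdft1 gave -0.18 on its brightest probe set and -1.35 (SE 0.48) on a second, where both tagged arrays, at 8.13 and 8.07, lay below every untagged array. Pmvk, with a single probe set, gave 0.07.

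Elovl5, which elongates polyunsaturated fatty acids, had the largest difference of the fatty acid genes. It stood at 9.20, 9.18 and 8.79 in carcinomas 1 to 3, at 9.45 and 9.42 in the untagged papillomas, and at 12.25 and 11.58 in the tagged carcinoma and papilloma. The tagged arrays lay more than 2 log2 units above every other, and the difference was 2.70 (SE 0.27, adjusted p = 0.00104, limma), or 6.49-fold higher. A second probe set gave 1.59 (adjusted p = 0.00846 over all probe sets, limma). Elovl5 was the only one of the 9 called genes to keep its call in all 15 alternative analyses.

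Acly read 10.72, 10.92 and 10.17 in carcinomas 1 to 3, 10.95 and 10.42 in the untagged papillomas, and 11.90 and 11.69 in the tagged carcinoma and papilloma. The tagged arrays were the highest, with a difference of 1.16 (SE 0.27, adjusted p = 0.0248, limma). The next bright probe sets of Acly gave -0.03 and -1.52, neither called, so this rise too is that of 1 probe set. Without carcinoma 1 or either tagged array the call was lost.

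Acsl3, whose values are given above, fell by 1.22 with the tag (SE 0.30, adjusted p = 0.0324, limma), and its second bright probe set by 1.53 (adjusted p = 0.0255 over all probe sets, limma). Both tagged arrays lay below every untagged array. The call was lost without carcinoma 1, carcinoma 2, papilloma 1 or either tagged array. Acsbg1 differed by -1.68 (SE 0.84, adjusted p = 0.227, limma), with papilloma 2 below both tagged arrays.

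Elovl1, an elongase of saturated and monounsaturated very long chains, stood at 10.85, 10.70 and 9.90 in carcinomas 1 to 3, at 10.65 and 9.91 in the untagged papillomas, and at 11.09 and 11.14 in the tagged carcinoma and papilloma. The tagged arrays were the highest on this probe set, but the difference of 0.72 (SE 0.33) did not pass (adjusted p = 0.185, limma). Its other bright probe sets gave 0.76, -0.78 and -0.35, none called. Acsl5, another acyl-CoA synthetase, gave 0.72. Fasn differed by -0.62 and Elovl7 by -0.62, neither called, and Srebf1 by -0.16 (SE 0.22, adjusted p = 0.685, limma).

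Counted by position, both tagged arrays lay above every untagged array in 2 sterol and 4 fatty acid genes, an arrangement found in 21% of all genes. They lay below in 5 sterol and 3 fatty acid genes, against 19.9%. Endothelial, fibroblast and myeloid markers were called higher with the tag in 10 of 10, 9 of 9 and 6 of 10 measured, against 11.9% of all genes. Keratinocyte markers were called lower in 7 of 11, against 7.93%. By direction alone, all 10 myeloid markers were higher and all 11 keratinocyte markers lower. Of the adipocyte markers 2 of 8 measured were called higher, Adipoq and Car3, while by direction 4 were higher and 4 lower. The summed level of the 8 was 10.81 to 10.91 in the tagged arrays against 8.71 to 11.60. Adipoq, Lep, Cidec, Plin4, Lipe and Car3 were below the median gene in all 7 arrays. The 6 sebocyte markers measured summed to 8.72 to 9.58 against 7.86 to 9.62, none called, with Mc5r and Far2 below the median gene throughout. The part of other cells in the tag differences of the lipid genes was not tested, and fewer cells of a type cannot be told apart from less RNA per cell.

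Other genes of these pathways, from lists set beside the members, gave 0 calls between tumour types in every list. The counts with the tag that follow stand against 11.9% of all genes called higher and 7.93% lower. With the tag, 2 of 6 further sterol enzymes passed, Ggps1 higher by 1.65 (SE 0.38, adjusted p = 0.0260, limma) and Lbr lower, at -0.88 (SE 0.20). Of 11 genes of sterol sensing and uptake 2 were called higher and 0 lower, 18.2% against 19.8% of all genes called. They were Scarb1, a receptor for high density lipoprotein, by 3.27 (SE 0.21), and Stard3, by 0.96 (SE 0.24). Of 9 genes of sterol efflux, esterification and the LXR response 4 were called higher and 0 lower. The cholesterol exporters Abcg1 and Abca1 rose by 3.97 (SE 0.32) and 2.27 (SE 0.33), and Ch25h, which makes 25-hydroxycholesterol, by 3.79 (SE 0.36).

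On the fatty acid side, 2 of 18 further synthesis and desaturation genes were called higher and 1 lower, or 16.7% against 19.8% of all genes. Acacb, the mitochondrial carboxylase, rose by 1.35 (SE 0.21) and Hacd1, a dehydratase of the elongation cycle, by 2.48 (SE 0.61), while Tecr, the reductase that ends the cycle, fell by 1.49 (SE 0.20). Of 11 genes of activation and glycerolipid synthesis Acss1 rose by 1.42 and Agpat2 fell by 1.32. Of 12 regulators and NADPH sources Me3 alone passed, higher by 1.52, and of 14 genes of oxidation and storage Cd36, a fatty acid transporter that endothelial cells and adipocytes also express, rose by 3.16 (SE 0.49) and Pnpla2 by 0.87. In these lists 18.2%, 8.33% and 14.3% were called, all below the 19.8% of all genes. Carcinoma 3 was the lowest untagged array in 13 of the 18 further synthesis genes.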

How the data were processed

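RNA was isolated on micro columns, amplified and labelled with biotin, per the labels' protocols. RMA was the authors' normalization, per the same protocols, and the submitters' processing notes add affy, without versions. The log2 values deposited by the authors run from 2.72 to 14.51, a scale read from the values themselves. Of 45101 probe sets, 64 were controls and 34945 others had 1 gene symbol in the platform annotation, 932 several and 9160 none, which are unnamed here.

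For each of 18193 genes the probe set with the highest mean over all 7 arrays, tagged ones included, was used, with no filter on dim ones. limma 3.58.1 (R 4.3.3, lmFit and eBayes) fitted tumour type and GFP tag together over the 7 arrays, with 4 residual degrees of freedom, and the interaction with 3. P-values were two-sided and adjusted over all genes by Benjamini-Hochberg, with a threshold of 0.05. Gene lists are described by counts and medians without a test. The members and lists were chosen with earlier results of these data known. Values in every array are given for Srebf1, Srebf2, Insig1 and the 5 genes of each pathway with the largest difference in each comparison. In the other pathway lists up to 3 genes with the largest differences are named. Log2 sums of marker levels were taken over linear values. Sequences come from RefSeq, GRCm38.p6, matched by symbol.

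On simulated arrays with 200 changed genes among 18193, the fit recovered 0% of changes of 1 log2 unit, 74% of 2 and 92% of 3 for tumour type, and 0%, 66.5% and 90% for the tag. Many more genes than 200 were called with the tag in the data, so the tag figures do not describe that comparison. The number of arrays limits the precision. Alternatives left out each array or both tagged arrays, blocked on the replicate number, used array weights, a trended robust fit, centring, quantile normalization, 1 factor alone, all probe sets per gene, no x_at or s_at probe sets, and genes above the median.

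The numbers 1 and 2 and the GFP mark occur in both tumour types. Deviations from the mean of each tumour type, across genes, correlated at 0.476, 0.194 and 0.861 for these pairs. Each mean takes in a tagged array, so the tag difference alone pushes untagged pairs and the tagged pair towards positive values. Papilloma 1 also correlated at 0.683 with carcinoma 2, of another number, and at -0.687 with the tagged carcinoma. These values therefore cannot show pairing, and the labels state none. A fit with replicate number as block is therefore an alternative here.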

Additional observations from a re-analysis of the deposited data

Results flagged for a closer look

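Of 68 groups of 4 or 5 arrays examined for the 34 genes, 3 (4.41%) held an array far from the others, where chance alone marks about 5%. Elovl5 in the tagged carcinoma, at 12.25, was far above the next carcinoma array, at 9.20, a gap of 0.88 of the whole range. That group mixes tagged and untagged arrays, so the flag restates the tag difference. The tagged papilloma, at 11.58, was likewise far above the untagged papillomas, at 9.45 and 9.42, but the 3 papillomas were not examined as a group. Among the 5 untagged arrays, carcinoma 3 was far below the next array in Cyp51, at 8.17 against 9.53 (0.78 of the range), and in Mvk, at 7.48 against 8.13 (0.80 of the range).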

How the results depend on the processing

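Between tumour types 0 genes were called in every alternative except the mean of all probe sets per gene, which called 1, not a lipid gene. With the replicate block the count was also 0, with 500 genes at an unadjusted p under 0.05, and the medians were 0.14 for the sterol and 0.25 for the fatty acid genes, so the block changed no call. Without both tagged arrays they were -0.15 and 0.05. The sign of the tumour difference turned in at least 1 of 17 alternatives for 28 of the 34 genes, and did not for Fdft1, Mvk, Scd2, Elovl6, Acsbg1 and Acsl3. Fdft1 and Scd2 nevertheless reached practically no difference, at -0.0003 and 9.7e-16. The 17 are not separate checks. Leaving out either tagged array or both gave the same estimate, as did the block and leaving out carcinoma 3. The trended robust fit keeps the main estimate. For the tag, array weights called 6819 genes and 19 of the 34 members, against 3601 and 9, and leaving out 1 array gave 861 to 3955 genes and 1 to 12 members, with 1 without the tagged carcinoma, 2 without the tagged papilloma and 4 without carcinoma 1. Averaging all probe sets of a gene turned Hmgcs1 to -1.23 (adjusted p = 0.00303, limma) and Acly to -0.14, and leaving out x_at and s_at probe sets turned Acly to -0.029. The cause was not tested beyond the choice of probe set. For the interaction the trended robust fit called 3 genes, none of them a member, and leaving out 1 untagged array called 0. The Scd1 interaction ran from 2.57 to 3.53, with an adjusted p of 0.604 or more (limma). Changes of 1 log2 unit are below what 7 arrays recovered in simulation, where 200 genes were changed. With the tag, where 3601 genes were called, smaller differences did pass, such as Lbr at -0.88 and Stard3 at 0.96. The simulated recovery therefore does not describe the tag comparison. Signal over background could not be examined, since scanner values were not used here.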
